A study of Mus musculus with 12 samples.

Results

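The genes described here are 10 amino acid transporters of mouse embryonic stem cells (mESCs): Slc7a1, Slc7a3, Slc7a5, Slc7a6, Slc7a11, Slc3a2, Slc1a4, Slc1a5, Slc38a2 and Slc6a9. They were matched by gene symbol in the deposited tables, which list 54146 genes, and all 10 were found. RNA was sequenced from C57BL/6 mESCs in 12 libraries, 3 in each of 4 groups, and the study asked how gene expression changes after Prdm10 is deleted. Cells of every group carry floxed Prdm10 alleles and Rosa26-CreERT2, a Cre recombinase that tamoxifen activates. The Day 2 EtOH and Day 4 EtOH groups (labelled Prdm10F/F; Rosa26-CreERT2) received ethanol vehicle for 24 h, with harvest on Day 2 or on Day 4. The Day 2 OHT and Day 4 OHT groups (labelled Prdm10del/del; Rosa26-CreERT2) were given 50 nM 4-hydroxytamoxifen (OHT) for the same 24 h. The vehicle cells thus met neither OHT nor active Cre, so deletion and exposure to OHT cannot be told apart in these groups. The labels do not say whether the 3 libraries of a group came from separate cultures, so the p-values measure the spread between these libraries only.

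Amino acids cross the plasma membrane on carriers that share substrates and fall into a few families. Slc7a5, Slc7a6 and Slc7a11 encode light chains, which carry out the exchange but reach the cell surface only when linked to the heavy chain encoded by Slc3a2 (CD98). Several of these genes are known targets of the transcription factor ATF4, which is made when amino acids run short or other stresses slow translation. ATF4 binds C/EBP-ATF response elements.

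Totals ran from 35017667 to 41409992 expected counts per library. The Prdm10 row did not fall with the label. Its normalised count (expected count divided by the size factor of the library) was 767, 821 and 815 in Day 2 EtOH and 2080, 2225 and 2213 in Day 2 OHT, and 821, 875 and 911 in Day 4 EtOH against 1982, 2090 and 1965 in Day 4 OHT. The gene-level count does not resolve the deleted exon and so does not check the labels. Directions below are those of the libraries labelled OHT against the libraries labelled EtOH. The 6 stem cell markers summed to between 800 and 1019 TPM (a level scaled for transcript length and library size) in every library, all 7 differentiation markers were under 1 TPM in every library, and 4 of 5 fibroblast markers were too. The summed fibroblast markers were 2.20 to 3.06 TPM in Day 4 EtOH and 0.850 to 1.36 TPM in Day 4 OHT, and their part in the results was not tested.

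RefSeq promoter windows (GRCm38.p6, 250 bases before to 50 bases after a transcription start) were given for 7 of the 10 genes, in 11 windows. Those of Slc7a3, Slc7a5 and Slc1a5 were not analysed here. The C/EBP-ATF response element, searched as TGATGNAAN on both strands, was present in 2 of the 7 genes, Slc7a11 and Slc1a4, against 4.50% of the 27025 genes with a window. The core of the antioxidant response element, TGACNNNGC, was present in 4 of the 7 (Slc7a1, Slc7a6, Slc38a2 and Slc6a9) against 14% of all genes. The E-box CACGTG was in none of the 7 and in 8.09% of all genes. These shares are by gene, and a gene with several windows has more places for a match. The 7 genes had 11 windows and the 27025 genes had 32851. Of all windows, 3.95% held the C/EBP-ATF element and 12.4% the antioxidant core. The stretches from 120 bases before to 20 bases after the start are shown for Slc7a11 and Slc1a4, which hold the element, and for Slc7a1, the other called member over 2-fold lower at Day 4. Capitals mark the matches. The Slc7a11 stretch is chr3:50443594-50443733 on the minus strand, the Slc1a4 stretch is chr11:20332694-20332833 on the minus strand and the Slc7a1 stretch is chr5:148399885-148400024 on the minus strand.
Slc7a11: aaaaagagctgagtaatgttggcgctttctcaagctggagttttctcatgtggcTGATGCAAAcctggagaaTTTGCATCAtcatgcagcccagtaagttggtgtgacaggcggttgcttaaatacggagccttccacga
Slc1a4: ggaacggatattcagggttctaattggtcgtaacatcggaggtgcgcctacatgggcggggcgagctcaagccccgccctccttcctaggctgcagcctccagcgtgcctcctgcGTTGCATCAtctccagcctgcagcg
Slc7a1: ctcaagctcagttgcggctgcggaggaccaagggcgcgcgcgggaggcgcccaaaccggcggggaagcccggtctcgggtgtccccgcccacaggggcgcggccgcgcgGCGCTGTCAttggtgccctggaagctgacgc
Slc7a11 held 2 response elements in opposite orientation, starting 66 and 48 bases before the start, and Slc1a4 held 1, which spans the start. Slc7a1 held the antioxidant core only, starting 11 bases before the start. A match describes the letters of the window and not binding by a factor.

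In Day 2 EtOH, the heavy chain Slc3a2 had the highest level per transcript length, at 80.6 TPM, followed by the glutamine and neutral amino acid transporter Slc38a2 at 44.99, the cationic carrier Slc7a3 at 39.9, the leucine and large neutral carrier Slc7a5 at 27.1, Slc7a6 at 23.7, the glutamine exchanger Slc1a5 at 20.7, the cationic carrier Slc7a1 at 6.04, the serine and alanine exchanger Slc1a4 at 4.23, the glycine transporter Slc6a9 at 0.477 and the cystine-glutamate exchanger Slc7a11 at 0.123 TPM (means, n = 3). No 2 neighbours in that order overlapped between libraries. In Day 4 EtOH, Slc7a3 at 55.3 ± 1.69 TPM (SD, n = 3) and Slc38a2 at 53.9 ± 0.568 TPM overlapped. In both OHT groups, Slc7a6 had the higher mean of the 2 light chains but its libraries overlapped those of Slc7a5, at 27.1 ± 1.49 against 26.1 ± 0.850 TPM at Day 2 and 26.9 ± 2.62 against 25.3 ± 0.983 TPM at Day 4. Slc1a5, Slc7a1, Slc1a4, Slc6a9 and Slc7a11 took the last 5 places in that order in every group.

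**Figure D1:**
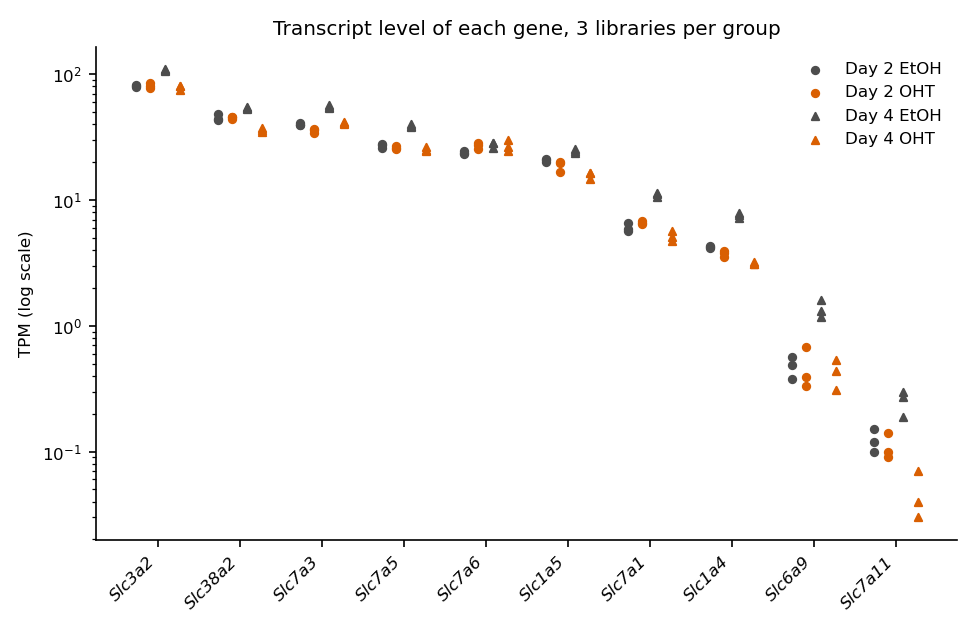
Transcript level (TPM, log axis) of each of the 10 genes, ordered by the Day 2 EtOH mean; each point is 1 library, circles are Day 2, triangles are Day 4, grey is EtOH and orange is OHT. Slc3a2 is at the top of every group and Slc7a11 at the bottom.

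Whether the transporters differed between OHT and EtOH was asked first at Day 2. A gene was called when its adjusted p in DESeq2's Wald test was under 0.05 and its mean normalised count in the libraries compared was over 100. Slc7a3, Slc1a4 and Slc1a5 were called lower, so 3 of 10 members, where 10.8% of all genes tested were called lower. None was called higher (9.23% of all genes tested). Of all genes with a mean over 100 in the 12 libraries, 27% had every Day 2 OHT library below every Day 2 EtOH library. A further 18.6% had every Day 2 OHT library above. Day 2 groups without overlap, as given below for single members by normalised count, were thus common. The 8 members over the minimum mean had a median log2 fold change of −0.098, against −0.028 over all genes tested. These are bulk cultures, in which fewer cells of a kind and less RNA per cell cannot be told apart.

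At Day 4, 7 of the 10 members were called lower: Slc7a1, Slc7a3, Slc7a5, Slc3a2, Slc1a4, Slc1a5 and Slc38a2. Over all genes tested, 21.7% were called lower and 23.6% higher, and no member was called higher. Slc7a6 was not called, and Slc7a11 and Slc6a9 were under the minimum mean. Slc7a1 and Slc1a4 were over 2-fold lower among the called, where 0.952% of all genes tested were. Every library labelled OHT was below every library labelled EtOH in 7 of the 8 members with a mean over 100 in the 12 libraries (29.5% of all such genes), and also in Slc7a11 and Slc6a9, which were under it. The median log2 fold change of the 8 members over the minimum was −0.54, against 0.0061 over all genes tested. The members were chosen with earlier results of these data known. Their shares and medians beside those of all genes, in every comparison here, thus describe the set and do not test it.

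**Figure D2:**
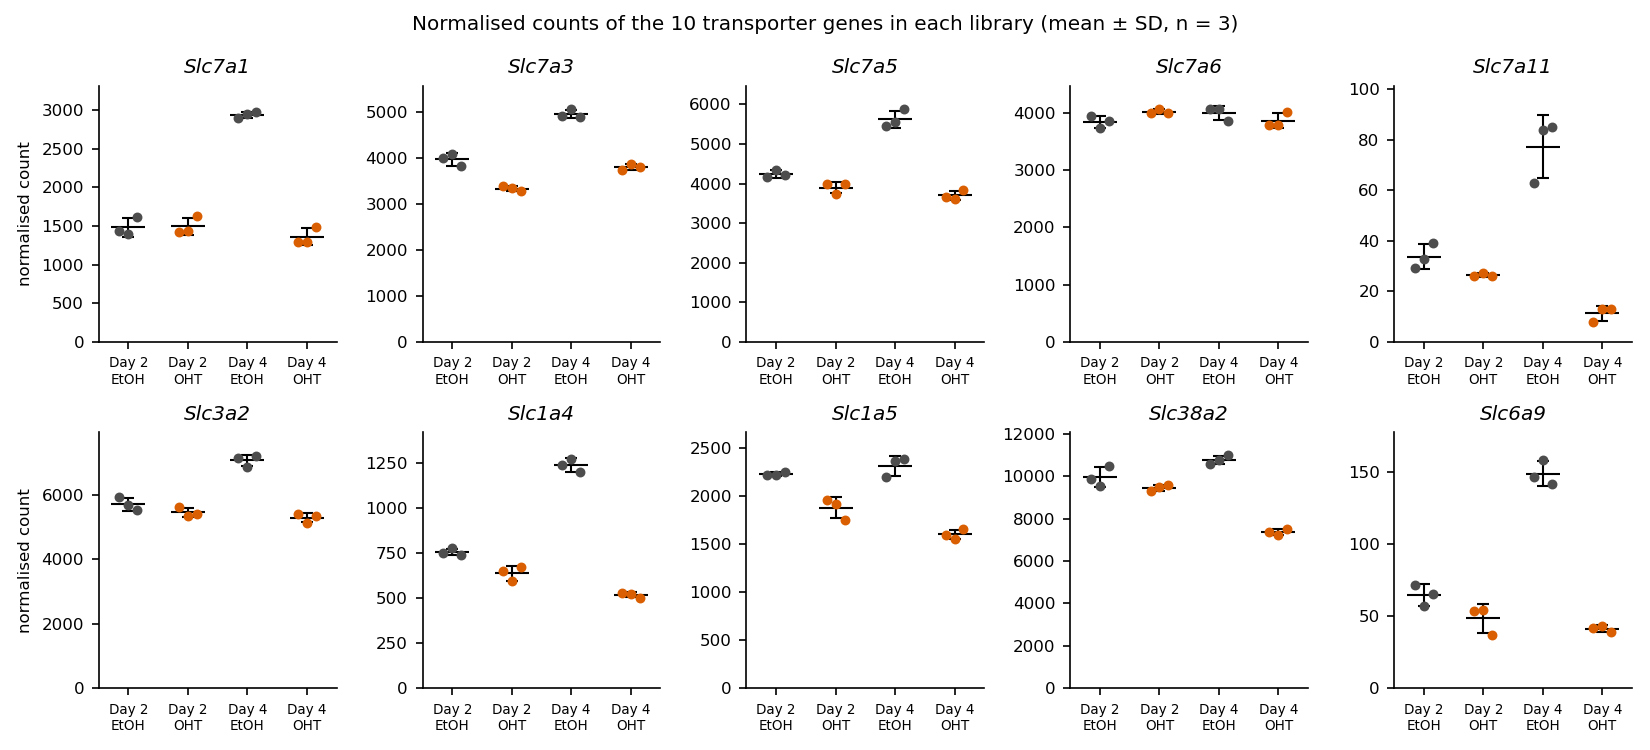
Normalised counts (linear axis from 0, each gene on its own scale) of the 10 genes in each of the 12 libraries, with the mean and SD of each group of 3. The Day 4 EtOH libraries are the highest for 8 genes, and overlap other groups for Slc7a6 and Slc1a5.

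Among the cationic carriers, which take up arginine and lysine, Slc7a1 (chromosome 5, GRCm38 148327410 to 148399904, minus strand) had 1435, 1393 and 1623 normalised counts in Day 2 EtOH and 1424, 1434 and 1626 in Day 2 OHT. The Day 2 groups overlapped and OHT over EtOH was 0.011 on the log2 scale (SE 0.07, adjusted p in DESeq2 = 0.950). At Day 4 it had 2896, 2955 and 2972 in EtOH and 1298, 1298 and 1491 in OHT. The OHT libraries were all below the lowest EtOH library, and the log2 fold change was −1.11 (SE 0.06, adjusted p = 1.10e-83). Slc7a3 (chromosome X, 101079210 to 101086020, minus strand), the more abundant carrier of this kind here, had 3995, 4086 and 3812 in Day 2 EtOH and 3382, 3336 and 3265 in Day 2 OHT. It was already lower in OHT than in EtOH at Day 2, with no overlap, by 0.25 on the log2 scale (SE 0.05, adjusted p = 5.70e-06). At Day 4 its counts were 4908, 5054 and 4876 in EtOH and 3735, 3859 and 3791 in OHT. The log2 fold change was −0.38 (SE 0.04, adjusted p = 3.85e-22), again with no overlap.

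Slc3a2 (chromosome 19, 8706882 to 8723369, minus strand), the shared heavy chain, had 5921, 5673 and 5528 normalised counts in Day 2 EtOH and 5623, 5354 and 5410 in Day 2 OHT. These overlapped, and the log2 fold change was −0.063 (SE 0.04, adjusted p = 0.382; 95% interval −0.15 to 0.025). At Day 4 it had 7134, 6875 and 7195 in EtOH and 5414, 5132 and 5336 in OHT, with no overlap and a log2 fold change of −0.42 (SE 0.04, adjusted p = 1.76e-28). Slc7a5 (chromosome 8, 121881150 to 121907694, minus strand), the light chain for leucine and other large neutral amino acids, had 4156, 4356 and 4222 in Day 2 EtOH and 3981, 3731 and 3984 in Day 2 OHT. The groups did not overlap, but the log2 fold change of −0.12 missed the threshold (SE 0.05, adjusted p = 0.0615), and passed it with effective lengths as offsets (adjusted p = 0.0479), with all 12 libraries in 1 fit (adjusted p = 0.0215) and without Day 2 OHT replicate 3 (adjusted p = 0.0496). At Day 4 it had 5464, 5558 and 5873 in EtOH and 3667, 3600 and 3833 in OHT. It was lower in OHT than in EtOH by 0.61 on the log2 scale (SE 0.04, adjusted p = 4.93e-46). Slc7a5 overlaps Gm20388 on the opposite strand, which had a mean of 952 expected counts against 4386 for Slc7a5, and the strand setting of the counting is not given in the sources used here.

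Slc7a6 (chromosome 8, 106168857 to 106198706, plus strand), a light chain that exchanges cationic for neutral amino acids, had the smallest Day 4 difference of the 10. It had 3951, 3741 and 3848 normalised counts in Day 2 EtOH, 3995, 4065 and 3989 in Day 2 OHT, 4069, 4061 and 3851 in Day 4 EtOH and 3788, 3785 and 4010 in Day 4 OHT. The Day 2 OHT libraries were above all Day 2 EtOH libraries, whereas the Day 4 groups overlapped. Neither difference was called, with log2 fold changes of 0.063 at Day 2 (SE 0.05, adjusted p = 0.390) and −0.051 at Day 4 (SE 0.04, adjusted p = 0.386; 95% interval −0.13 to 0.032).

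Slc7a11 (chromosome 3, 49892526 to 50443614, minus strand) encodes the cystine-glutamate exchanger, which supplies cysteine for glutathione. It was the least counted member, with 29.3, 32.7 and 39.1 normalised counts in Day 2 EtOH and 25.9, 27.2 and 26.1 in Day 2 OHT. At Day 4 it had 63.0, 84.0 and 85.0 in EtOH and 7.90, 12.8 and 13.0 in OHT, from 61, 85 and 84 expected counts against 8, 13 and 14. Neither day's groups overlapped. The log2 fold change was −0.35 at Day 2 (SE 0.36, adjusted p = 0.588) and −2.78 at Day 4 (SE 0.36, adjusted p = 3.97e-13), the most negative of the 10, but the mean of 44.7 at Day 4 kept it from being called.

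Of the sodium-dependent exchangers, Slc1a4 (chromosome 11, 20302180 to 20332713, minus strand), which exchanges serine, alanine and cysteine, had 754, 777 and 742 normalised counts in Day 2 EtOH and 651, 593 and 671 in Day 2 OHT. It was called lower at Day 2, with a log2 fold change of −0.25 (SE 0.08, adjusted p = 0.0231), and the groups did not overlap. The Day 2 call was lost with total counts as scaling (adjusted p = 0.0744) and with 1 library left out, without Day 2 EtOH replicate 1 or 2 (adjusted p = 0.0904 and 0.124) and without Day 2 OHT replicate 1 or 2 (adjusted p = 0.0562 and 0.164). At Day 4 it had 1241, 1276 and 1201 in EtOH and 531, 521 and 504 in OHT, and the log2 fold change was −1.26 (SE 0.07, adjusted p = 6.49e-65). Slc1a5 (chromosome 7, 16781340 to 16798274, plus strand), the main glutamine exchanger, had 2223, 2221 and 2250 in Day 2 EtOH and 1960, 1921 and 1754 in Day 2 OHT. It was lower in OHT by 0.25 on the log2 scale (SE 0.06, adjusted p = 4.95e-04). At Day 4 it had 2198, 2366 and 2390 in EtOH and 1598, 1560 and 1655 in OHT, with no overlap on either day. The Day 4 log2 fold change was −0.53 (SE 0.05, adjusted p = 1.55e-21).

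Slc38a2 (chromosome 15, 96687392 to 96699730, minus strand), a sodium-coupled importer of small neutral amino acids, had 9864, 9533 and 10475 normalised counts in Day 2 EtOH and 9298, 9509 and 9576 in Day 2 OHT. These overlapped and were not called, with a log2 fold change of −0.073 (SE 0.04, adjusted p = 0.287). At Day 4 the counts were 10587, 10763 and 10981 in EtOH and 7363, 7245 and 7520 in OHT. It was lower in OHT than in EtOH by 0.55 on the log2 scale (SE 0.03, adjusted p = 4.17e-63). Slc6a9 (chromosome 4, 117834506 to 117875198, plus strand), a glycine importer, had 71.9, 56.8 and 65.1 in Day 2 EtOH and 53.9, 54.4 and 37.0 in Day 2 OHT, then 147, 158 and 142 in Day 4 EtOH and 41.5, 43.5 and 39.1 in Day 4 OHT. Neither day's groups overlapped. The log2 fold change was −0.41 at Day 2 (SE 0.27, adjusted p = 0.340) and −1.85 at Day 4 (SE 0.22, adjusted p = 5.39e-16). The Day 4 mean of 95.9 kept it from being called. It was called when any 1 Day 4 OHT library was left out. Its mean then passed the minimum only through the EtOH libraries, so these calls add no support. Slc6a9 shares its locus with B4galt2 on the opposite strand, which had a mean of 269 expected counts against 75.9.

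**Figure D3:**
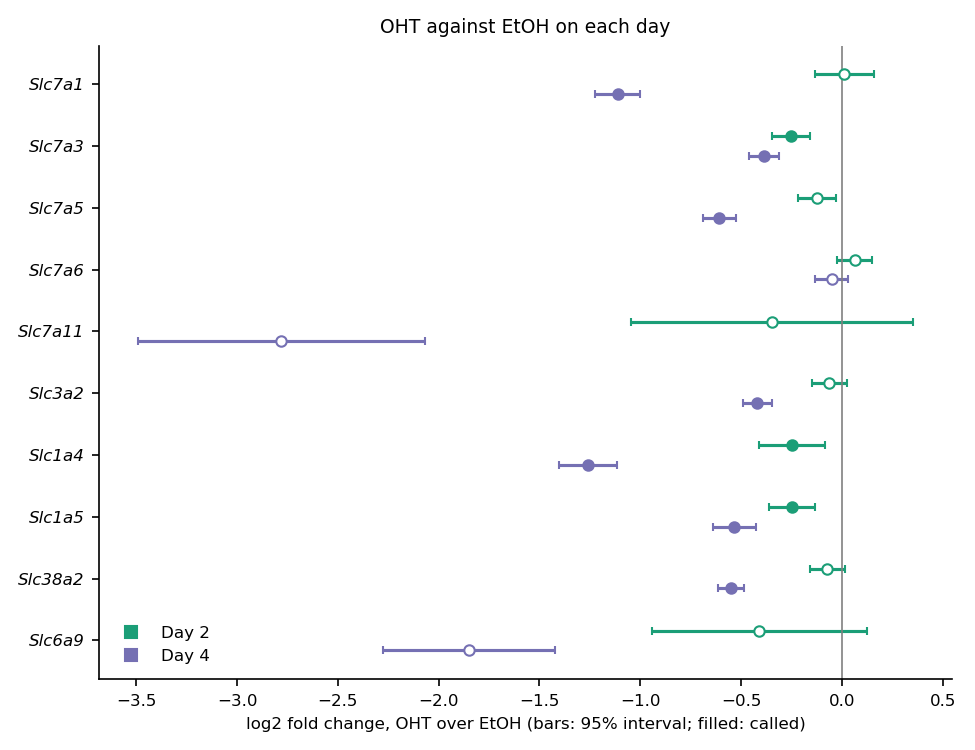
Log2 fold change of OHT over EtOH at Day 2 (green) and Day 4 (purple) for the 10 genes, with 95% intervals; filled points were called (adjusted p under 0.05 and mean normalised count over 100). At Day 4 the interval lies below 0 for every gene but Slc7a6, and Slc7a1 is at 0.011 at Day 2 and −1.11 at Day 4.

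Whether the OHT difference itself changed between the days was tested by an interaction term in a fit to the 12 libraries. It called 6 of the 10 members more negative at Day 4, where 13.6% of all genes tested were called in that direction and 18.9% in the other. The change in log2 fold change was −1.12 for Slc7a1 (SE 0.10, adjusted p in DESeq2 = 1.68e-27) and −1.01 for Slc1a4 (SE 0.10, adjusted p = 2.26e-23). It was smaller for the heavy chain and its leucine partner, at −0.35 for Slc3a2 (SE 0.05, adjusted p = 1.00e-09) and −0.48 for Slc7a5 (SE 0.06, adjusted p = 4.93e-14). Slc38a2 changed by −0.47 (SE 0.05, adjusted p = 1.24e-18) and Slc1a5 by −0.28 (SE 0.07, adjusted p = 9.25e-04). Slc7a3, which already differed at Day 2, had a change of −0.13 that missed the threshold (SE 0.05, adjusted p = 0.0502). The Slc7a3 call was gained with total counts as scaling (adjusted p = 0.00597), with effective lengths as offsets (adjusted p = 0.0112), with the adjustment over genes above the minimum mean (adjusted p = 0.0383) and without Day 2 EtOH replicate 2 (adjusted p = 0.0431) or Day 2 OHT replicate 3 (adjusted p = 0.0471). Slc7a6 was at −0.11 (SE 0.05, adjusted p = 0.130) and was called with total counts as scaling (−0.16, adjusted p = 0.0208). Slc7a11 at −2.43 (SE 0.45, adjusted p = 1.66e-06) and Slc6a9 at −1.44 (SE 0.30, adjusted p = 2.56e-05) were under the minimum mean.

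Day 4 was then compared with Day 2 within each label. These comparisons share libraries with those above, and harvest day and any batch cannot be told apart. In the EtOH libraries, 6 members with means well over the minimum were called higher at Day 4 (Slc7a1, Slc7a3, Slc7a5, Slc3a2, Slc1a4 and Slc38a2), where 20.6% of all genes tested were called higher and 20.5% lower. Slc6a9 was called as well, which made 7 of 10, but it passed the minimum mean only through the Day 4 libraries, and no member was called lower. Every Day 4 EtOH library was above every Day 2 EtOH library in 6 of the 8 members with a mean over 100 in the 12 libraries (29.6% of all such genes), and also in Slc7a11 and Slc6a9, which were under it.

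Slc7a1 rose most among the called members with a mean far over the minimum, by 0.99 on the log2 scale (SE 0.06, adjusted p = 2.85e-60), or by 0.74 with effective lengths as offsets. Slc1a4 rose by 0.71 (SE 0.07, adjusted p = 2.21e-22), Slc7a5 by 0.41 (SE 0.04, adjusted p = 7.15e-19), Slc7a3 by 0.32 (SE 0.04, adjusted p = 6.16e-12) and Slc3a2 by 0.31 (SE 0.04, adjusted p = 1.34e-12). Slc38a2 rose by only 0.11 (SE 0.04, adjusted p = 0.0203), and its call was lost without Day 2 EtOH replicate 1 or 2 (adjusted p = 0.101 and 0.191) and without Day 4 EtOH replicate 2 or 3 (adjusted p = 0.0835 and 0.116). Slc6a9 rose by 1.20 (SE 0.20, adjusted p = 4.60e-08). Its mean of 106 fell under the minimum without any 1 Day 4 EtOH library or with all 12 libraries in 1 fit. Slc7a11 had a log2 fold change of 1.20 (SE 0.28, adjusted p = 1.80e-04) under the minimum mean. Slc1a5 at 0.053 (SE 0.05, adjusted p = 0.501) and Slc7a6 at 0.051 (SE 0.04, adjusted p = 0.422) were not called.

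In the OHT libraries, 3 of the 10 were called lower at Day 4 and 1 higher, where 23.1% of all genes tested were called lower and 30.9% higher. Slc38a2 fell by 0.36 on the log2 scale (SE 0.04, adjusted p = 7.05e-22), Slc1a4 by 0.30 (SE 0.09, adjusted p = 0.00303) and Slc1a5 by 0.23 (SE 0.06, adjusted p = 7.26e-04). Slc7a3 rose by 0.19 (SE 0.04, adjusted p = 4.95e-05), the 1 member called higher at Day 4 under both labels. Slc7a5 was at −0.072 (SE 0.05, adjusted p = 0.223), Slc3a2 at −0.042 (SE 0.04, adjusted p = 0.453) and Slc7a6 at −0.054 (SE 0.04, adjusted p = 0.350). Slc7a1 was at −0.13 (SE 0.07, adjusted p = 0.150), but at −0.36 with effective lengths as offsets (adjusted p = 6.36e-06), and was called without Day 4 OHT replicate 3 (−0.20, adjusted p = 0.0397). Its effective length, RSEM's mean length over its transcripts weighted by their abundance, was 5159 ± 194 bases in Day 2 EtOH and 5065 ± 263 in Day 2 OHT, but 6153 ± 225 in Day 4 EtOH and 5997 ± 218 in Day 4 OHT (SD, n = 3). Slc6a9 was at −0.23 (SE 0.30, adjusted p = 0.591) and Slc7a11 at −1.23 (SE 0.46, adjusted p = 0.0236), both under the minimum mean.

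**Figure D4:**
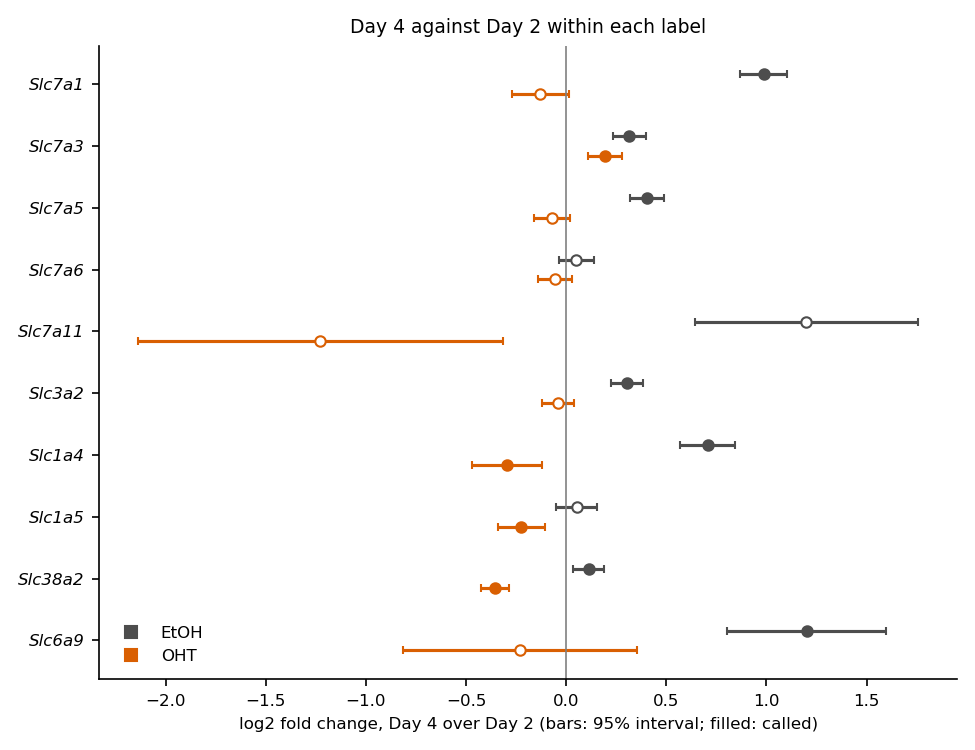
Log2 fold change of Day 4 over Day 2 in the EtOH libraries (grey) and in the OHT libraries (orange) for the 10 genes, with 95% intervals; filled points were called. Slc7a1 and Slc1a4 are at 0.99 and 0.71 in EtOH and at −0.13 and −0.30 in OHT, and Slc7a3 is above 0 in both.

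Shares of summed TPM were compared by exact two-sided permutation tests, 3 libraries against 3, for 4 measures in 4 comparisons. The smallest p that this design allows is 0.1, which became 0.160 after adjustment over these 16 tests. Of the light chains Slc7a5 and Slc7a6 together, Slc7a5 made up 53.4% ± 1.44 (SD, n = 3) in Day 2 EtOH, 49.1% ± 1.65 in Day 2 OHT, 58.6% ± 1.70 in Day 4 EtOH and 48.5% ± 1.44 in Day 4 OHT. OHT was below EtOH in every library on both days (exact permutation p = 0.1, adjusted 0.160, for each). Of Slc1a4 and Slc1a5 together, Slc1a4 made up 17.0% ± 0.409 and 16.8% ± 1.78 at Day 2, which overlapped (exact permutation p = 0.9, adjusted 0.900), and 23.6% ± 1.21 in EtOH against 16.5% ± 0.705 in OHT at Day 4, which did not (exact permutation p = 0.1, adjusted 0.160). Of the cationic carriers, Slc7a3 made up 86.9% ± 0.926 in EtOH and 84.5% ± 0.449 in OHT at Day 2, and 83.3% ± 0.740 and 88.8% ± 0.831 at Day 4, with no overlap on either day and opposite directions (exact permutation p = 0.1, adjusted 0.160, for each). The summed TPM of the 3 light chains among the members was 0.619 ± 0.0122 of that of Slc3a2 in Day 4 EtOH and 0.663 ± 0.0294 in Day 4 OHT. These did not overlap (exact permutation p = 0.1, adjusted 0.160), and the 3 Day 4 OHT libraries were at 0.642, 0.652 and 0.697. The ratio uses TPM and so depends on the estimated effective lengths. The library at 0.697, Day 4 OHT replicate 3, had a Slc7a6 effective length of 3089 bases, against 3273 and 3434 in Day 4 OHT replicates 1 and 2. Whether the groups also separate by counts was not tested. At Day 2 the values were 0.632 ± 0.0194 in EtOH and 0.655 ± 0.0124 in OHT, which overlapped (exact permutation p = 0.2, adjusted 0.291). The sum leaves out light chains that are not members, such as Slc7a7, so it does not describe all partners of Slc3a2.

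**Figure D5:**
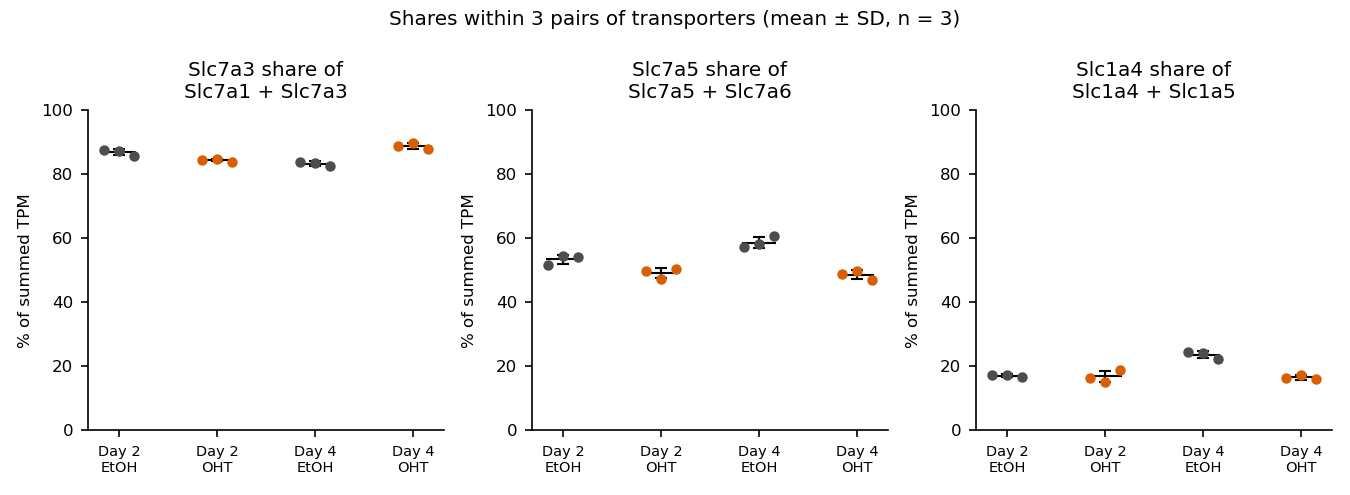
Share of the summed TPM (%, axis from 0 to 100) of each of 3 pairs of transporters that is taken by 1 member of the pair, in each library, with the mean and SD of each group of 3. In Day 4 EtOH Slc7a5 takes 58.6% and Slc1a4 23.6% of their pairs, and in Day 4 OHT 48.5% and 16.5%.

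Atf4, the regulator named above, had 7136, 7087 and 7263 normalised counts in Day 2 EtOH, 6770, 6039 and 6085 in Day 2 OHT, 10461, 10356 and 10277 in Day 4 EtOH and 6885, 6850 and 6651 in Day 4 OHT. OHT was below EtOH in every library on both days. OHT over EtOH was −0.18 on the log2 scale at Day 2 (SE 0.05, adjusted p in DESeq2 = 0.00279) and −0.61 at Day 4 (SE 0.03, adjusted p = 1.63e-79), with an interaction of −0.42 (SE 0.06, adjusted p = 4.82e-12). It rose by 0.53 from Day 2 to Day 4 in EtOH (SE 0.03, adjusted p = 1.11e-52) and by 0.11 in OHT (SE 0.05, adjusted p = 0.0409). Transcript counts do not measure ATF4 protein, which is set largely by translation.

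The genes whose profile over the 12 libraries was nearest to that of Slc3a2, by the root mean square difference of centred log2 normalised counts among 11616 genes, were Gcsh at 0.0437, Lck at 0.0445 and Pycrl at 0.0458. Gcsh encodes the H protein of the glycine cleavage system, Lck a lymphocyte tyrosine kinase and Pycrl an enzyme of proline synthesis. Among the members, Slc7a5 was nearest at 0.0841 (rank 124 of the 11616), followed by Slc7a3 at 0.101 (rank 357) and Slc1a5 at 0.144 (rank 1716).

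The other amino acid transporters were counted for comparison. These lists, like the members, were chosen with earlier results of these data known, so a difference between them and the members is description only. Of 45 further carriers of the plasma membrane and lysosome, 19 passed the minimum mean. At Day 4, 5 of the 19 were called lower and 3 higher, where 21.7% of all genes tested were called lower and 23.6% higher. Their median log2 fold change was 0.0079, against 0.0061 over all genes tested. At Day 2 none of the 45 was called lower and 2 were called higher, where 10.8% of all genes tested were called lower and 9.23% higher. The Day 2 median was 0.12, against −0.028 over all genes tested. Named from these lists are the 4 most negative and the 4 most positive Day 4 differences among carriers over the minimum mean. Slc7a7, another light chain partner of Slc3a2, was lower in OHT than in EtOH by 0.64 at Day 4 (SE 0.06, adjusted p = 2.78e-28). The glutamate transporter Slc1a3 was lower by 0.58 (SE 0.09, adjusted p = 1.27e-08) and the aromatic amino acid carrier Slc16a10 by 0.40 (SE 0.16, adjusted p = 0.0439). Ctns, the lysosomal cystine exporter, was higher by 0.54 (SE 0.10, adjusted p = 1.64e-07), Slc43a2 by 0.28 (SE 0.10, adjusted p = 0.0132) and Slc6a15 by 0.25 (SE 0.07, adjusted p = 0.00290), whereas Slc43a1 at 0.24 was not called (SE 0.12, adjusted p = 0.124). Of 10 mitochondrial amino acid carriers, 7 passed the minimum mean, and 3 were called lower and 1 higher at Day 4. Their median was −0.24, against 0.0061 over all genes tested, and the shares of all genes called are those given above. Sfxn1, the mitochondrial serine carrier, was lower in OHT by 0.41 (SE 0.05, adjusted p = 2.48e-15).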

How the data were processed

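Stranded total RNA libraries (3 in each of 4 groups, 12 in all) were aligned by the authors with STAR 2.6.0c to GRCm38.p6 and quantified with RSEM, with GENCODE as annotation. The deposited tables hold, per gene and library, expected counts (not normalised) and TPM (scaled for effective length and library size); the authors' DESeq2 comparison columns were not used. Expected counts were rounded to whole numbers. Groups were taken from the labels. DESeq2 1.42.0 in R 4.3.3 (Wald test, independent filtering at 0.05) was fitted over all genes, and a gene was called at an adjusted p under 0.05 with a mean normalised count over 100, after the methods of the study. Normalised counts printed use size factors over the 12 libraries. TPM served to order genes, to sum cell type markers, and for shares and the light chain ratio within each library. The marker sums, shares and ratio were then compared between groups. The pseudocount for profile likeness was 1. Scripts were tested on simulated data with 200 changed genes. The named genes were the 10 members, Prdm10, Atf4, the 4 most positive and 4 most negative of the other carriers at Day 4 among those over the minimum mean, and the 3 genes nearest to Slc3a2. Alternatives were edgeR 4.0.16, TMM or total-count scaling, length offsets, adjustment restricted to genes over the minimum mean, no such minimum, 1 fit for all libraries, the replicate block and leaving out each library. The members and lists were chosen with earlier results of these data known. Gene positions are from GENCODE on GRCm38, promoter sequences from RefSeq on GRCm38.p6. Protein sequences were not analysed here. No 2 libraries of a group were alike within sampling noise.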

Additional observations from a re-analysis of the deposited data

Results flagged for a closer look

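For 6 transporters the OHT difference itself differed between Day 4 and Day 2, by the interaction term of DESeq2 over the 12 libraries. The Day 4 log2 fold change minus the Day 2 log2 fold change was −1.12 for Slc7a1, −1.01 for Slc1a4, −0.48 for Slc7a5, −0.47 for Slc38a2, −0.35 for Slc3a2 and −0.28 for Slc1a5, with adjusted p-values from 1.68e-27 for Slc7a1 to 9.25e-04 for Slc1a5. Over all genes tested, 13.6% were called in that direction. The 3 Day 4 EtOH libraries enter both the interaction and the Day 4 comparison. From Day 2 to Day 4, Slc7a1, Slc7a5 and Slc3a2 were called higher in EtOH and were not called in OHT. Slc1a4 and Slc38a2 were called higher in EtOH and lower in OHT, and Slc1a5 was called lower in OHT only. The Slc7a1 result in OHT and the Slc38a2 call in EtOH changed under some alternatives.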

How the results depend on the processing

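All 150 counts of called members under the alternatives stayed within 1.5 times the values given, including 7 to 9 members lower at Day 4; of 750 values for single genes, 713 kept their direction and side of the threshold, 20 gained a call, 14 lost one and 3 reversed. With 1 library left out, the Day 2 log2 fold change of Slc7a1 ran from −0.052 to 0.082, and the Day 2 difference in the Slc1a4 share ran from −1.18 to 0.576 percentage points (added after seeing the data); the cause was not tested. With the replicate number as a replicate block, 2 members were lower at Day 2 instead of 3, as Slc1a4 lost its call (−0.25, DESeq2 adjusted p = 0.164), and no other call of a member changed; over all genes, 1302 instead of 2333 were called at Day 2 and 3892 instead of 5237 at Day 4. Same-numbered libraries did not deviate together as a set (correlations from −0.38 to 0.28, and not every library correlated best with its own number). With 3 libraries per group, this cannot show that same-numbered libraries were not made together, so the block is given as an alternative. No scaling moved the median of all genes by over 0.1. With no minimum mean, Slc7a11 and Slc6a9 were called lower at Day 4 as well, which made 9. Both genes have low counts.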
